A study of Mus musculus with 2 samples.

Results

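Peroxiredoxins, thioredoxin and their partners remove the hydrogen peroxide that cells make or take up. The genes described here are 9 mouse genes of that system, chosen by symbol from 32285 genes in the files: the peroxiredoxins Prdx1, Prdx5 and Prdx6, thioredoxin (Txn1), thioredoxin reductase (Txnrd1), sulfiredoxin (Srxn1), catalase (Cat) and the superoxide dismutases Sod1 and Sod2. All 9 were found in the files. All 9 passed the minimum of 10 counts per 1000000 unique molecular identifiers (UMIs) in the phagocytes. Subcutaneous tumors of a syngeneic fibrosarcoma from WT C57BL/6 mice were digested, freed of red cells and run over magnetic columns. The iron-positive library came from the eluate, the cells held by the magnet, and the iron-negative library from the flowthrough, and both were prepared as droplet libraries that count the 3' ends of transcripts. Both groups shared the same genotype and tumor type and differed, as far as the labels say, in the column step. The labels used here name neither the tumor line nor the age or number of the mice, and the data hold no measure of iron.

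Superoxide is turned into hydrogen peroxide by superoxide dismutases, Sod1 mainly in the cytosol and Sod2 in mitochondria. Catalase splits peroxide without a cofactor to be restored, while peroxiredoxins reduce peroxide with a cysteine that thioredoxin then resets, and thioredoxin is itself reset by the NADPH-dependent selenoenzyme thioredoxin reductase. Sulfiredoxin rescues peroxiredoxins that peroxide has over-oxidised, and several of these genes are textbook targets of the transcription factor NRF2. Macrophages meet peroxide from their own oxidase, and they meet heme iron where they break down red cells.

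There were 13668 barcodes with 129921053 UMIs in the iron-positive library and 10124 barcodes with 132796517 UMIs in the iron-negative library. Barcodes with at most 15% mitochondrial UMIs were kept, 12143 iron-positive and 9403 iron-negative, with medians of 7349 and 13017 UMIs. The libraries shared 85 barcode sequences. Cells were gated by marker genes, none of which is among the 9 genes. Phagocytes made up 9133 iron-positive cells (75.2%) and 9010 iron-negative cells (95.8%), with medians of 8943 and 13282 UMIs. The iron-positive library also held 456 endothelial cells, 114 pericytes or smooth muscle cells, 234 mesenchymal cells and 46 T or NK cells, and the iron-negative library 9, 1, 63 and 20 cells of these classes. There was 1 library per fraction. Every difference below is therefore between 2 libraries, has no replicate check and no p-value, and carries exact 95% intervals that cover counting error only. Levels are UMIs per 1000000 UMIs of the cells named (CPM), and a gene was counted as higher or lower from a ratio of 1.5-fold.

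All 9 genes are protein coding. On the mm10 build, Prdx1 lies at chr4:116685544-116700822 on the plus strand and Txn1 at chr4:57943373-57956411 on the minus strand. Srxn1 lies at chr2:152105516-152111376 (plus) and Cat at chr2:103453849-103485160 (minus). Txnrd1 lies at chr10:82833951-82897712 (plus), Prdx5 at chr19:6906697-6910106 (minus) and Prdx6 at chr1:161240112-161251219 (minus). Sod1 lies at chr16:90220754-90226329 (plus) and Sod2 at chr17:13006846-13040063 (plus). Prdx6 and Txn1 have named copies elsewhere in the genome (Prdx6b and Prdx6-ps2, and Txn-ps1). No source used here says how reads shared with a copy were counted, so the values of Prdx6 and Txn1 are uncertain to that extent.

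RefSeq promoters on the GRCm38.p6 build were matched for 8 of the 9 genes, giving 10 windows of the 250 bases before an annotated start. They were searched on both strands for the core letters of the antioxidant response element, TGACNNNGC or TGAGNNNGC, and for the AP-1 letters TGAGTCA, which can overlap the first. The element's letters were in 23.0% and the AP-1 letters in 4.46% of all 32851 promoter windows of this length, and 25.7% and 5.16% of all 27025 genes had them in at least 1 window. Of the 8 genes, 4 had the element's letters (Prdx1, Txnrd1, Srxn1 and Sod1) and 2 the AP-1 letters (Prdx1 and Srxn1). The sequences of Prdx1, Srxn1 and Txnrd1 are shown because these genes go together in the values below. Cat also goes with them, and Prdx5 does not. Both are shown as windows without a match. Each runs 5' to 3' on the gene's own strand, in lower case, with matches in capitals, at chr4:116685349-116685598 (Prdx1, plus), chr2:152105274-152105523 (Srxn1, plus), chr10:82858956-82859205 (Txnrd1, the start with a match of 3 annotated, plus), chr2:103485154-103485403 (Cat, minus) and chr19:6910107-6910356 (Prdx5, minus).
Prdx1: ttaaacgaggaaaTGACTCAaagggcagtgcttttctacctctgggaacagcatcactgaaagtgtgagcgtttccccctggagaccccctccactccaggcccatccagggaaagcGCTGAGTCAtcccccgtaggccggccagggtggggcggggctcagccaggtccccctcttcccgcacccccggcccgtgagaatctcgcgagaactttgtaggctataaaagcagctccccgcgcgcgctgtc
Srxn1: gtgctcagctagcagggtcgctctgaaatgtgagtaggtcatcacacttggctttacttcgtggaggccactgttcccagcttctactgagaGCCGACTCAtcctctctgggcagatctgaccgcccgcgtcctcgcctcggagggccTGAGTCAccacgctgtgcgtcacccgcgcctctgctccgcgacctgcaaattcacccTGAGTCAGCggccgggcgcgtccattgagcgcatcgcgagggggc
Txnrd1: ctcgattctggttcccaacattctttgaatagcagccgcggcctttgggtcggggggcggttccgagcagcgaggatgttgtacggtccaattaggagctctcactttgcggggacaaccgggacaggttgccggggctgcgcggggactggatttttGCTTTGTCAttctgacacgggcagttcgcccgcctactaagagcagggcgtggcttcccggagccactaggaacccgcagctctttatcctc
Cat: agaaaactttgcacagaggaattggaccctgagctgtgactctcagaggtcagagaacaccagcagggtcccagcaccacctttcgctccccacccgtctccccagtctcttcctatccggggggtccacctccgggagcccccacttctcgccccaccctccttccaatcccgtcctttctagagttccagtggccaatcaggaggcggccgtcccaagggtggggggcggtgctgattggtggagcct
Prdx5: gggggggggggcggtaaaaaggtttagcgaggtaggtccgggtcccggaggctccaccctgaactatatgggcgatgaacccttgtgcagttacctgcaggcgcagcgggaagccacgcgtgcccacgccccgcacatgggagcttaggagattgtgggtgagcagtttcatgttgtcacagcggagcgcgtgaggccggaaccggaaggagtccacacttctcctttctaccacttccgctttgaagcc
In Prdx1 the element GCTGAGTCA, on the reverse strand, begins 133 bases before the start and contains the AP-1 letters, and a second AP-1 match begins 237 bases before it. Srxn1 had an element at 45 bases that overlaps an AP-1 match, another at 158 bases and a separate AP-1 match at 102 bases before the start. Txnrd1 had 1 element at 92 bases, and Sod1, not printed, had 1 at 56 bases. A match is a run of letters, and binding was not measured.

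The first comparison asked whether the phagocytes held by the magnet differed from those that passed. Peroxiredoxin 1, peroxiredoxin 6, sulfiredoxin and catalase were higher in iron-positive phagocytes by 1.87-fold to 2.83-fold, while the other 5 genes were above the iron-negative level by less than 1.5-fold. Prdx1, the main cytosolic peroxiredoxin, was at 2325 CPM in iron-positive and 823 CPM in iron-negative phagocytes, a ratio of 2.83 (2.81 to 2.85). Prdx6, which reduces oxidised phospholipids with glutathione, was at 271 CPM in iron-positive and 111 CPM in iron-negative phagocytes, a ratio of 2.45 (2.40 to 2.50). Of all 7722 genes at 10 CPM or more in either library, 2.47% were higher and 0.738% lower by 1.5-fold, against 4 and 0 of the 9 genes.

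Srxn1, the repair enzyme of over-oxidised peroxiredoxins, was at 96.6 CPM in iron-positive and 46.0 CPM in iron-negative phagocytes, a ratio of 2.10 (2.03 to 2.17). Cat, which encodes the peroxisomal enzyme catalase, was at 78.7 CPM in iron-positive and 42.2 CPM in iron-negative phagocytes, a ratio of 1.87 (1.80 to 1.94). Txnrd1 was just under the 1.5-fold line, with 203 CPM in iron-positive and 141 CPM in iron-negative phagocytes and a ratio of 1.43 (1.40 to 1.46). Txn1, thioredoxin itself, differed by 1.26-fold (828 CPM in iron-positive, 657 CPM in iron-negative phagocytes). Sod2 differed by 1.27-fold (192 CPM in iron-positive, 151 CPM in iron-negative phagocytes). Prdx5, a peroxiredoxin of mitochondria and peroxisomes, differed by 1.17-fold (1123 CPM in iron-positive, 957 CPM in iron-negative phagocytes) and Sod1 by 1.14-fold (185 CPM in iron-positive, 162 CPM in iron-negative phagocytes). The median log2 ratio was 0.52 over the 9 genes and -0.11 over all genes, so the 9 ratios are larger when read against the median gene. Scaling the libraries by that median moved Txnrd1 past the line, to 0.63 on the log2 scale.

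**Figure D1:**
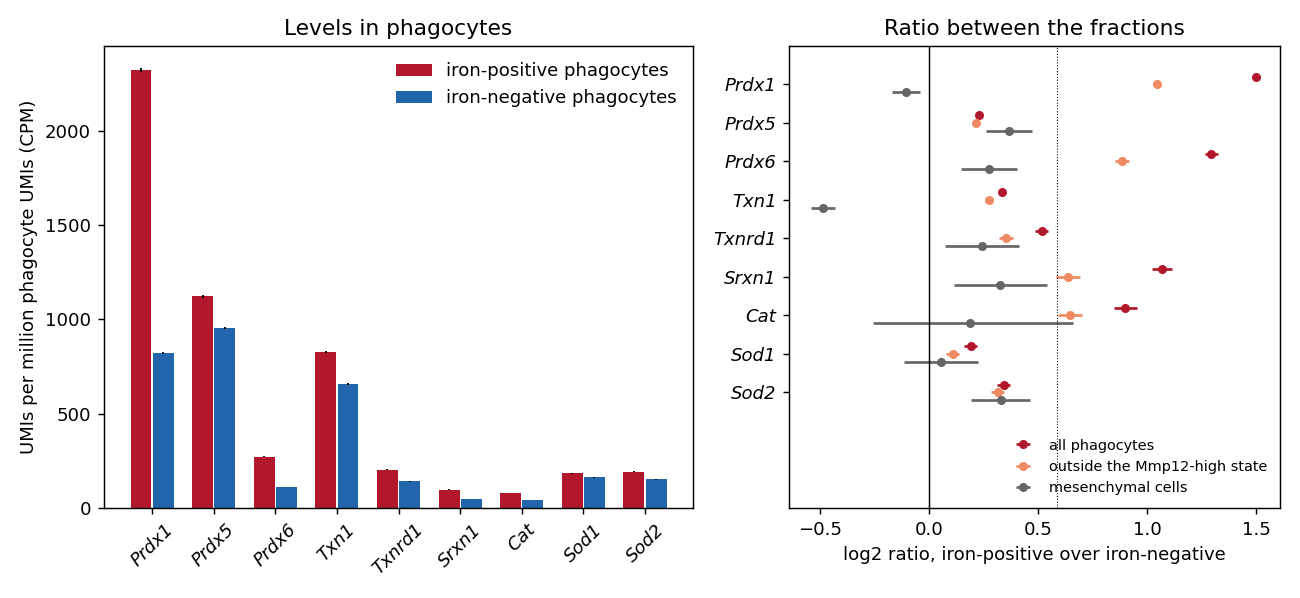
Left, level of each gene in UMIs per 1000000 phagocyte UMIs (CPM), as 1 bar per library with exact 95% counting intervals. Right, log2 ratio of iron-positive over iron-negative in all phagocytes, in phagocytes outside the Mmp12-high state and in mesenchymal cells, with the dotted line at 1.5-fold. Prdx1, Prdx6, Srxn1 and Cat pass the line in both phagocyte sets, and no gene passes it in mesenchymal cells.

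Iron-positive phagocytes also held more RNA of several other cell types. All 9 mesenchymal markers were higher in them, with a sum of 81.6 CPM in iron-positive and 22.6 CPM in iron-negative phagocytes, and none was at 0 in either. Also higher were 8 of 9 endothelial markers, 8 of 9 pericyte markers, 5 of 5 mast cell markers, 5 of 6 neutrophil markers and 4 of 6 red cell genes. Their sums in iron-positive phagocytes were 101 CPM for endothelial, 16.6 CPM for pericyte, 14.0 CPM for mast cell, 127 CPM for neutrophil and 2.43 CPM for red cell genes. In iron-negative phagocytes they were 68.9, 4.17, 1.54, 54.1 and 0.0878 CPM, with 3 pericyte markers at 0, and 2 red cell genes were at 0 in both libraries. T or NK cell markers went the other way, with 3 of 9 higher and sums of 2.33 CPM in iron-positive and 2.72 CPM in iron-negative phagocytes. Of 4 B cell markers 3 were higher in iron-positive phagocytes, but their sum was lower, at 4.50 CPM against 6.44 CPM in iron-negative ones. A single B cell marker made up 6.31 CPM of that iron-negative sum. Prdx1, Prdx6, Srxn1 and Cat kept ratios above 1.5-fold when 10% free RNA was subtracted. That free RNA was taken as the profile of all barcodes of a library, most of them phagocytes. The step could therefore change phagocyte ratios little, and it cannot show the part of these other cells in them. That part was not tested. The shares of mitochondrial UMIs were 3.16% in iron-positive and 3.40% in iron-negative phagocytes, and those of ribosomal protein UMIs 15.8% in iron-positive and 15.4% in iron-negative phagocytes.

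Depth differed between the libraries as well, so phagocytes were divided by their UMIs. Prdx1 was at 3411, 2319, 2065, 2105 and 2887 CPM in iron-positive phagocytes with up to 2000, above 2000 to 5000, above 5000 to 10000, above 10000 to 20000 and above 20000 UMIs. In iron-negative phagocytes of the same depths it was at 1292, 1094, 814, 759 and 885 CPM. The iron-positive level was the higher one at every depth. With each phagocyte thinned to 1000 UMIs, which left out 481 iron-positive and 147 iron-negative cells, 66.2% of iron-positive and 50.3% of iron-negative phagocytes had a Prdx1 UMI, while the unthinned shares were 96.2% in iron-positive and 96.4% in iron-negative phagocytes. In iron-positive phagocytes the thinned shares were 19.4% for Prdx6, 7.51% for Srxn1 and 7.04% for Cat, against 10.0%, 4.63% and 4.43% in iron-negative phagocytes. In iron-positive endothelial cells thinned alike (median of 13431.5 UMIs before), Srxn1 was detected in 3.17% and Cat in 3.39%. The unthinned shares were 36.8% for Srxn1 and 37.1% for Cat in iron-positive phagocytes, against 37.1% and 39.2% in iron-negative phagocytes.

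Phagocytes were next divided into 9 states by marker genes, with the rest called no state. To pass the limit of a state, a phagocyte had to be in the top 10% by its markers and have at least 2 of them. Those passing several limits went to the state where they ranked highest. Of 565 phagocytes past the Cd209f Cd163 Lyve1 limit, for example, 354 iron-positive and 65 iron-negative ones were placed in that state. A state is a range of cells and not a type: 459 iron-positive and 65 iron-negative phagocytes lay within 20% of the limit of the Mmp12-high state, for example. Prdx1, Prdx6, Srxn1, Cat, Txnrd1 and Txn1 had their highest level, in both libraries, in Mmp12-high Cd36-positive phagocytes, marked by the elastase gene Mmp12, the lipid receptor gene Cd36 and Gpnmb, with 960 iron-positive and 54 iron-negative cells. Prdx1 reached 7845 CPM in Mmp12-high iron-positive phagocytes, against 1645 CPM in other iron-positive phagocytes, a ratio of 4.77 (4.73 to 4.81). In the iron-negative library it was at 5329 CPM in Mmp12-high phagocytes, against 797 CPM in other phagocytes, a ratio of 6.68 (6.47 to 6.91). Of the 9 genes, 6 were higher in that state in the iron-positive library, where 6.29% of all genes were, and 7 in the iron-negative library, where 9.51% were. The state thus stood out in both fractions, although it was rare in the flowthrough.

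Prdx6 was at 844 CPM in Mmp12-high against 201 CPM in other iron-positive phagocytes, and at 461 against 109 CPM in iron-negative ones. Srxn1 was at 314 against 69.8 CPM in iron-positive phagocytes and at 259 against 44.9 CPM in iron-negative ones. Cat was at 188 against 65.2 CPM in iron-positive phagocytes and at 136 against 41.6 CPM in iron-negative ones. Txnrd1 was at 392 against 179 CPM in iron-positive phagocytes and at 328 against 140 CPM in iron-negative ones. These 4 genes and Prdx1 were past 1.5-fold in both libraries. Sod1 was past it in the iron-positive library alone (log2 ratio 0.62 in iron-positive and 0.15 in iron-negative phagocytes). Txn1 (0.49 in iron-positive, 0.74 in iron-negative) and Sod2 (0.27 in iron-positive, 0.70 in iron-negative) were past it in the iron-negative library alone, and these differences between libraries were not tested. Prdx5 had log2 ratios of 0.14 in iron-positive and 0.22 in iron-negative phagocytes.

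The Mmp12-high state held 11.0% of the UMIs of iron-positive phagocytes but 37.0% of their Prdx1, 35.7% of their Srxn1, 34.1% of their Prdx6, 26.2% of their Cat and 21.2% of their Txnrd1. Its shares of Txn1 (14.7%), Sod1 (15.9%), Sod2 (12.9%) and Prdx5 (11.9%) were closer to its share of UMIs. In iron-negative phagocytes it held 0.557% of UMIs and 3.61% of Prdx1. Without the cells placed in this state, the same 4 genes were higher in iron-positive phagocytes, with log2 ratios of 1.04 for Prdx1, 0.89 for Prdx6, 0.65 for Cat and 0.64 for Srxn1, and 2.06% of all genes were higher there. Over both libraries 1347 phagocytes passed the limit of this state, but 960 iron-positive and 54 iron-negative cells were placed in it. The rest ranked higher in another state. They remain among the other phagocytes and in the ratios without this state. Iron-positive states reweighted to their shares in the iron-negative library left 2 of the 9 past 1.5-fold, and so did equal weights for all states, which gave Prdx1 0.70, Prdx6 0.62, Cat 0.58 and Srxn1 0.29.

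**Figure D2:**
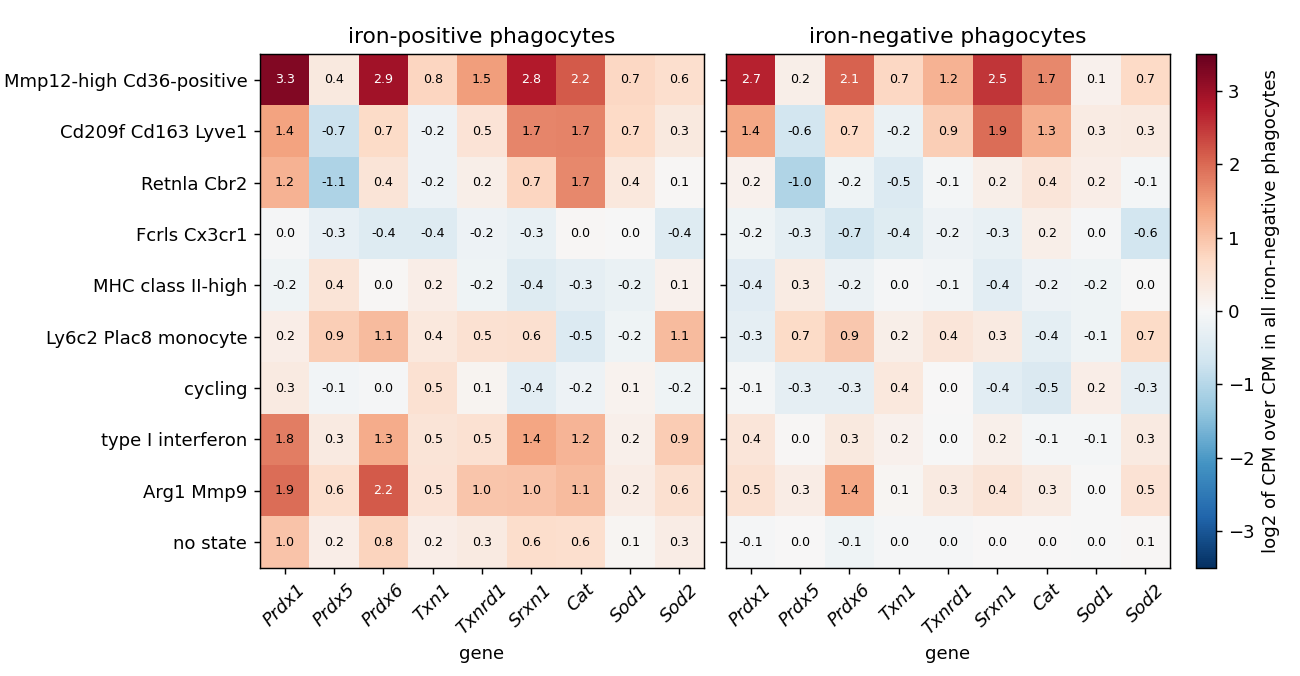
Heat map of log2 of each gene's CPM in a phagocyte state over its CPM in all iron-negative phagocytes, with iron-positive phagocytes on the left and iron-negative phagocytes on the right. Rows are states and columns are genes. The Mmp12-high row is the highest for Prdx1 in both panels, while Prdx5 is highest in the Ly6c2 Plac8 row.

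Prdx1 spanned 10.6-fold over the 10 states of the iron-positive library and 8.51-fold over those of the iron-negative library. In the iron-positive library it was, after the Mmp12-high state, at 3176 CPM in Arg1 Mmp9 cells, 2852 CPM in type I interferon cells, 2167 CPM in Cd209f Cd163 Lyve1 cells (markers of resident macrophages), 1903 CPM in Retnla Cbr2 cells and 1628 CPM in cells of no state. Cycling cells had 1024 CPM, Ly6c2 Plac8 monocytes 969 CPM, Fcrls Cx3cr1 cells 802 CPM and MHC class II-high cells 740 CPM. No 2 neighbours in that order had overlapping counting intervals. In the iron-negative library the Cd209f Cd163 Lyve1 cells came second at 2111 CPM, followed by Arg1 Mmp9 cells at 1196 CPM and type I interferon cells at 1099 CPM. The 4 lowest were cycling (788 CPM), Fcrls Cx3cr1 (736 CPM), Ly6c2 Plac8 (663 CPM) and MHC class II-high cells (626 CPM), and only cycling cells and those of no state (794 CPM) overlapped.

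Srxn1 was second highest in Cd209f Cd163 Lyve1 cells in both libraries (152 CPM in iron-positive, 178 CPM in iron-negative). Cat had the same second place (141 CPM in iron-positive, 101 CPM in iron-negative), with overlapping intervals to Retnla Cbr2 cells in the iron-positive library (135 CPM) and to Mmp12-high cells in the iron-negative one. Prdx6 had Arg1 Mmp9 cells second (493 CPM in iron-positive, 285 CPM in iron-negative) and Fcrls Cx3cr1 cells last (81.1 CPM in iron-positive, 70.4 CPM in iron-negative). Txnrd1 had Arg1 Mmp9 cells second in the iron-positive library (276 CPM), while its first 2 states in the iron-negative library, Mmp12-high and Cd209f Cd163 Lyve1 (328 and 259 CPM), overlapped. These genes shared the top state, but not the order below it.

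Prdx5 had another order. It was highest in Ly6c2 Plac8 monocytes (1739 CPM in iron-positive, 1512 CPM in iron-negative) and lowest in Retnla Cbr2 cells (455 CPM in iron-positive, 463 CPM in iron-negative). Cd209f Cd163 Lyve1 cells were next to last (573 CPM in iron-positive, 612 CPM in iron-negative). Sod2, the mitochondrial dismutase that inflammatory signals induce, was also highest in Ly6c2 Plac8 monocytes in the iron-positive library (325 CPM), followed by type I interferon cells (282 CPM). In the iron-negative library Sod2 stood at 243 CPM in Mmp12-high cells and 238 CPM in Ly6c2 Plac8 monocytes, which overlapped. Txn1 was highest in Mmp12-high cells (1111 CPM in iron-positive, 1095 CPM in iron-negative) and next highest in cycling cells (945 CPM in iron-positive, 844 CPM in iron-negative). Sod1 varied least, by 1.95-fold over the iron-positive and 1.35-fold over the iron-negative states, and all neighbours in its iron-negative order overlapped.

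Across the 10 states, Pearson's r of log2(CPM + 1) between Prdx1 and Srxn1 was 0.93 in the iron-positive and 0.95 in the iron-negative library. In the iron-positive library Prdx1 had r of 0.90 with Txnrd1, 0.89 with Prdx6, 0.88 with Cat and 0.04 with Prdx5. In the iron-negative library these were 0.88, 0.77, 0.92 and -0.05. Prdx5 and Sod1 had r of -0.45 in the iron-positive and -0.75 in the iron-negative library. The points of a library share its preparation, free RNA and depth, so these values are descriptions. Over the 20 state profiles of both libraries and among 2928 genes at 50 CPM or more, the genes most like Prdx1 were Gclm (r = 0.98), Cyb5a (0.97) and Ftl1 (0.96). Those most like Prdx6 were Esd (0.97), Card19 (0.97) and Grina (0.95). Cat was most like Creg1 (0.98), Psap (0.97) and Gstm1 (0.96), Prdx5 most like Fxyd5 (0.95), and Sod2 most like Slpi, Cd274 and Ptgs2 (0.93 each). Srxn1 was most like Prr13 (0.94), Txnrd1 most like Card19 (0.94), Sod1 most like Hist1h1c (0.91) and Txn1 most like Psmb5 (0.88).

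The fractions were also compared state by state, although the cells of a state were not alike in both libraries. The markers of the Mmp12-high state summed to 5770 CPM in iron-positive and 3815 CPM in iron-negative cells of that state, and Hmox1 was at 5130 CPM in iron-positive and 3643 CPM in iron-negative ones. Prdx1 was above its iron-negative level in all 10 states, by log2 ratios of 0.04 in Cd209f Cd163 Lyve1 cells to 1.41 in Arg1 Mmp9 cells, and the interval excluded 1 in 9 of them. Of all genes, 1.28% were above 1 in all 10 states. Prdx6, Txn1 and Sod2 were above 1 in 9 states each, with intervals above 1 in 9, 7 and 6 of them. Prdx5, Txnrd1 and Srxn1 were above 1 in 8, with intervals above 1 in 7, 5 and 6. Cat and Sod1 were above 1 in 7, with intervals above 1 in 7 and 5. Txnrd1 and Sod1 each had 1 state with an interval below 1, for Sod1 the cycling cells. The share of all genes was taken for all 10 states only, so these counts have none beside them. Txnrd1 was lower in iron-positive Cd209f Cd163 Lyve1 cells, at 196 CPM against 259 CPM in iron-negative ones (log2 ratio -0.40).

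The states differed in how many genes passed 1.5-fold. Type I interferon cells had 5 of 9 higher, where 4.16% of all genes were, with Prdx1 at 2852 CPM in iron-positive and 1099 CPM in iron-negative cells (log2 ratio 1.38), Cat 1.25, Srxn1 1.18, Prdx6 0.96 and Sod2 0.59. Arg1 Mmp9 cells had 4 (2.85% of all genes), with Prdx1 at 3176 CPM in iron-positive and 1196 CPM in iron-negative cells and log2 ratios of 0.82 for Cat, 0.79 for Prdx6 and 0.65 for Txnrd1. Retnla Cbr2 cells had 3 (3.82% of all genes), where Cat was at 135 CPM in iron-positive and 56.4 CPM in iron-negative cells (1.26), Prdx1 had 1.05 and Prdx6 0.60. Cells of no state also had 3 (1.65% of all genes), Prdx1 (1.04), Prdx6 (0.92) and Srxn1 (0.62). In Mmp12-high cells only Prdx6 passed (0.87; 6.47% of all genes), and Prdx1 was at 0.56. In the Cd209f Cd163 Lyve1, Fcrls Cx3cr1, MHC class II-high, Ly6c2 Plac8 and cycling cells none of the 9 was higher, where 7.16%, 0.817%, 0.502%, 2.08% and 0.768% of all genes were higher. Whether the ratios differ between states was not tested.

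Hmox1, the heme-degrading enzyme, is itself higher in iron-positive phagocytes, so phagocytes were divided by their Hmox1 UMIs to see how these genes go with it cell by cell. Prdx1, Prdx6, Srxn1, Txnrd1, Cat, Txn1 and Sod1 were highest in the phagocytes with most Hmox1 in both libraries. The iron-negative Sod1 interval there overlapped that of the bin before (216 and 197 CPM). Prdx5 and Sod2 had their largest value there in the iron-negative library alone, with overlapping intervals. Prdx5 was at 1036 CPM (985 to 1089) there and 1029 CPM (1015 to 1043) in phagocytes without Hmox1. Sod2 was at 273 CPM (247 to 301) there and 257 CPM (238 to 277) in the bin before. Prdx1 was at 892, 973, 1979, 4147 and 8762 CPM in iron-positive phagocytes with 0, up to 5, up to 20, up to 50 and more than 50 Hmox1 UMIs per 10000. In iron-negative phagocytes of the same bins it was at 617, 713, 1026, 2372 and 5251 CPM. Prdx1 thus climbed with Hmox1 in both libraries and was higher in the iron-positive one in each bin. Cells of the same bin differed in depth, with medians of 4514.5 UMIs in iron-positive and 10116 UMIs in iron-negative phagocytes without Hmox1. The highest bin has no upper limit, and Hmox1 within it was not compared between the libraries. The highest bin held 992 iron-positive and 140 iron-negative cells.

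In the bins of 20 to 50 and above 50, Cat was at 131 and 254 CPM in iron-positive and at 82.8 and 157 CPM in iron-negative phagocytes. Txnrd1 in the highest bin was at 488 CPM in iron-positive and 475 CPM in iron-negative phagocytes, with overlapping intervals. Srxn1 was at 404 CPM in iron-positive and 288 CPM in iron-negative phagocytes of that bin. Prdx5 stayed between 1084 and 1170 CPM over the iron-positive bins and between 856 and 1036 CPM over the iron-negative ones. Without the cells placed in the Mmp12-high state the highest bin still had 6763 CPM of Prdx1 in iron-positive and 4328 CPM in iron-negative phagocytes, from 602 and 126 cells.

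**Figure D3:**
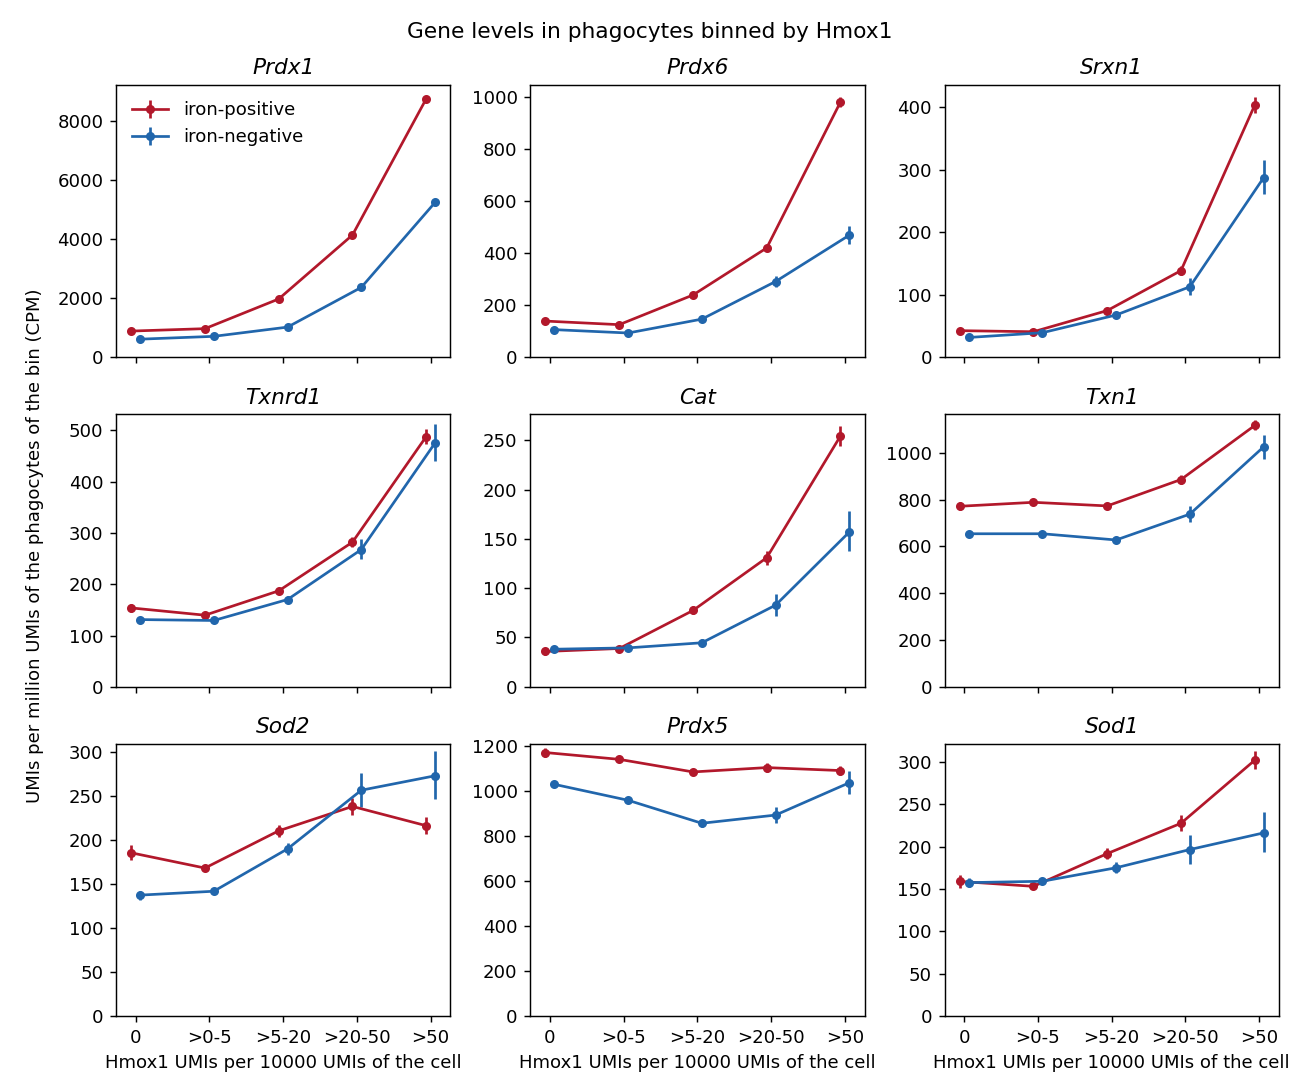
Level of each gene (CPM, y axis) in phagocytes grouped by their Hmox1 UMIs per 10000 UMIs (x axis), with exact 95% counting intervals and 1 line per library. All genes but Prdx5 and Sod2 are highest in the bin above 50 in both libraries, and these 2 in the iron-negative library alone. The iron-negative intervals of Prdx5, Sod2 and Sod1 in that bin overlap that of another bin.

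The stromal cells allowed the same genes to be seen outside phagocytes. These classes also held phagocyte RNA, with none of the 8 phagocyte markers at 0 in those of the iron-positive library. There the markers summed to 334 CPM in endothelial cells, 252 CPM in pericytes, 470 CPM in mesenchymal cells and 1209 CPM in T or NK cells. In iron-positive phagocytes they summed to 9552 CPM. The part of phagocyte RNA in the class levels was not tested. In the iron-positive library, where most stromal cells were, 6 of the 9 genes were lower in stromal classes together than in phagocytes and none was higher, while 27.5% of all genes were lower and 29% higher. Against phagocytes outside the Mmp12-high state only Prdx1, Prdx5 and Cat, 3 of the 9, were lower, where 27.8% of all genes were. Cat was at 24.5 CPM in endothelial cells, 23.0 CPM in pericytes and 19.9 CPM in mesenchymal cells, against 78.7 CPM in phagocytes. Prdx1 was at 901, 792 and 844 CPM in these classes, against 2325 CPM in phagocytes and 1645 CPM in phagocytes outside the Mmp12-high state. Prdx5 was at 256, 527 and 375 CPM, against 1123 CPM. These classes of the iron-positive library were each below its phagocytes for these 3 genes. In the iron-negative library Prdx1 went the other way, at 907 CPM in mesenchymal cells and 882 CPM in stromal classes together, against 823 CPM in phagocytes.

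Srxn1 separated the stromal classes, with 94.6 CPM in mesenchymal cells, against 26.4 CPM in endothelial cells and 24.0 CPM in pericytes. Mesenchymal cells also had more Prdx6 (249 CPM) than endothelial cells (152 CPM) and pericytes (66.9 CPM), and more Sod2 (233 CPM) than pericytes (156 CPM) and endothelial cells (76.6 CPM). Txn1 was the only gene above its phagocyte level over stromal classes together, at 855 CPM against 828 CPM, a ratio of 1.03 (1.01 to 1.05). By class, 7 of the 9 genes were lower in endothelial cells (30.5% of all genes), 6 in pericytes (29.2%), 3 in mesenchymal cells (30.2%) and 7 in T or NK cells (31.1%). With 46 cells and 196092 UMIs, T or NK cells gave wide intervals, for example 387 to 587 CPM around the 479 CPM of Prdx1.

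**Figure D4:**
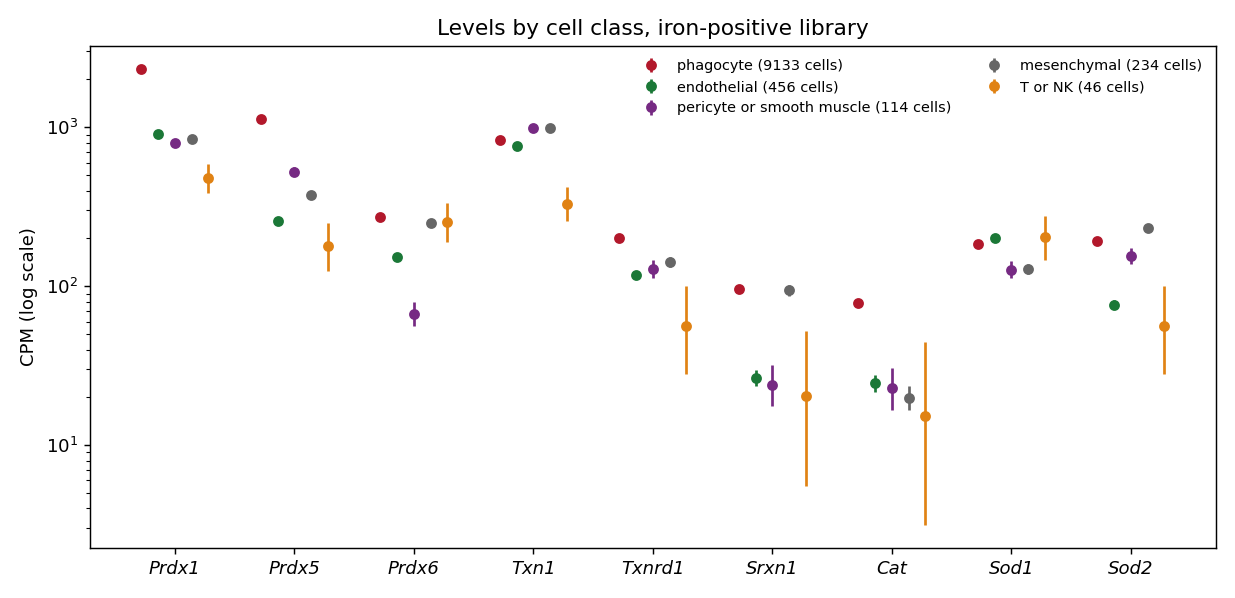
Level of each gene (CPM, log axis) in 5 cell classes of the iron-positive library, with exact 95% counting intervals. Phagocytes have the largest value for Prdx1, Prdx5, Prdx6, Txnrd1, Srxn1 and Cat. Their interval overlaps that of mesenchymal cells for Srxn1 and that of T or NK cells for Prdx6.

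Mesenchymal cells were the stromal class with at least 50 cells in both libraries, at medians of 19297 UMIs in iron-positive and 50398 UMIs in iron-negative cells. None of the 9 genes passed 1.5-fold between them, while 10.3% of all genes were higher and 9.83% lower. Prdx1 was at 844 CPM in iron-positive and 907 CPM in iron-negative mesenchymal cells, a ratio of 0.93 (0.89 to 0.97), and the mean of each cell's CPM put it above 0 on the log2 scale (0.04). Txn1 was at 987 CPM in iron-positive and 1380 CPM in iron-negative mesenchymal cells (log2 ratio -0.48). The other 7 had log2 ratios of 0.05 to 0.37, with intervals that held 0 for Cat and Sod1. Of these, 4 turned under an alternative: Txnrd1 was at -0.30 by the mean of each cell's CPM, Prdx6 at -0.06 in collagen-low cells, and Cat at -1.33 and Sod1 at -0.23 with cells thinned to 1000 UMIs. At most 234 iron-positive and 63 iron-negative cells were thinned. Cat was at 19.9 CPM in the iron-positive ones, so its thinned value rests on very few UMIs. Cells low in collagen were 45 of the iron-positive and 34 of the iron-negative mesenchymal cells, and within them Prdx1 was at 0.01 and Txn1 at -0.15. Relative to phagocytes of their own library, iron-negative mesenchymal cells had 3 genes higher (31.8% of all genes), Txn1 (log2 ratio 1.07), Prdx6 (0.90) and Srxn1 (0.71), and 2 lower (33.8%), Prdx5 (-1.72) and Cat (-1.27).

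Over all kept cells together, 4 of the 9 genes were higher in the iron-positive library (9.29% of all genes) and none lower (3.98%), with log2 ratios of 1.28 for Prdx1, 1.15 for Prdx6, 0.88 for Srxn1 and 0.68 for Cat. Prdx5 was at 927 CPM in iron-positive and 931 CPM in iron-negative cells (log2 ratio -0.01, and 0.10 when scaled by the median ratio), while phagocytes alone had 0.23. Barcodes of no class numbered 1919 in the iron-positive library (median of 829 UMIs) and 283 in the iron-negative library (808 UMIs). Among them Prdx1 was at 3468 CPM in iron-positive and 899 CPM in iron-negative barcodes, and 4 of the 9 genes were higher (16.4% of all genes) and none lower (24.9%). Neutrophil genes summed to 1027 CPM in these iron-positive and 1479 CPM in these iron-negative barcodes, and mast cell genes to 733 CPM in iron-positive and 22.4 CPM in iron-negative ones, with 4 of the 5 at 0 in the iron-negative barcodes. The part of these cells in the values was not tested.

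The wider peroxide system was read from 51 further genes, of which 39 were measured in phagocytes. Of these 39, 8 were higher in iron-positive phagocytes by 1.5-fold and none lower, where 2.47% of all genes were higher and 0.738% lower. Of the 8, 7 were in the list of NRF2 targets and 1, Ero1l, in the list of peroxide sources. The other lists had none. The median log2 ratio of the 39 was 0.04, against -0.11 over all genes. The other peroxiredoxins, all 3 measured, were at -0.13 (Prdx2, the cytosolic relative of Prdx1), -0.09 (Prdx3, in mitochondria) and -0.08 (Prdx4, in the endoplasmic reticulum). Prdx2 was at 244 CPM in iron-positive and 266 CPM in iron-negative phagocytes. Set against the median gene, Prdx2 lay just below it and Prdx3 and Prdx4 just above it.

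None of 6 measured thioredoxins and reductases passed 1.5-fold (Txndc5 -0.25, Txn2, the mitochondrial thioredoxin, -0.22, Txnl1 0.13 and Txndc17 0.09). The same held for 6 glutaredoxins and glutathione peroxidases (Gpx4, which reduces lipid peroxides in membranes, 0.24, Glrx 0.12, Glrx3 -0.11 and Glrx2 0.07). Of 6 measured superoxide, sestrin and methionine sulfoxide genes none passed either (Msrb1 0.30, Ccs, the copper chaperone of Sod1, -0.25, Selenow 0.18 and Sesn1 -0.09). Among 8 sources of peroxide 1 passed, Ero1l (0.95), the oxidase of protein folding, at 184 CPM in iron-positive and 95.4 CPM in iron-negative phagocytes. Ncf4, a cytosolic subunit of the phagocyte oxidase, had a log2 ratio of -0.37 and Rac2, a GTPase that activates it, one of -0.26, and neither was past 1.5-fold.

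The list of NRF2 targets outside the 9 genes had 7 of 10 measured genes higher and none lower, where 2.47% and 0.738% of all genes were. This list was set with earlier results of these data known. Its 10 measured genes had log2 ratios from -0.13 to 2.16. Gclm, the modifier subunit of glutathione synthesis, was at 185 CPM in iron-positive and 41.5 CPM in iron-negative phagocytes (log2 ratio 2.16). Hmox1 was at 1607 CPM in iron-positive and 393 CPM in iron-negative phagocytes (2.03). Gsr, which restores glutathione, was at 84.9 CPM in iron-positive and 28.8 CPM in iron-negative phagocytes (1.56). Gclc, the catalytic subunit of glutathione synthesis, was at 65.4 CPM in iron-positive and 31.5 CPM in iron-negative phagocytes (1.06). Nqo1 and Me1 of that list were under 10 CPM in both libraries.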

How the data were processed

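Both libraries are droplet-based 3' v3 single-cell libraries of tumor cells, per the labels. The authors deposited UMI counts for each barcode and gene, not normalized, as whole numbers in the files. The submitters' processing notes name Cell Ranger 3.1.0 and the mm10 build, but the file headers name Cell Ranger 5.0.0, and the version behind the counts could not be settled. No source used here states strand use or the treatment of reads from several loci. No barcode had under 500 UMIs.

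Barcodes with at least 200 genes and at most 15% mitochondrial UMIs were kept. A cell was a phagocyte with at least 4 of 8 markers and 20 marker UMIs per 10000. The limits were 5 of 9 and 20 for endothelial, 4 of 9 and 20 for pericyte or smooth muscle, 5 of 9 and 10 for mesenchymal, and 3 of 9 and 5 for T or NK cells. Barcodes passing 2 classes were left out (241 iron-positive, 17 iron-negative), except that those passing the pericyte and mesenchymal gates counted as pericytes. The markers were set with earlier results of these data known, as were the 9 genes and all other lists, and the limits were set after seeing the marker values. No doublet caller was used, so doublets of like cells remain. A state took phagocytes in the top 10% of both libraries by marker share with at least 2 of its markers, and cells passing several went to the one where they ranked highest.

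UMIs were summed over cells and divided by the class total. Ratios used each count plus 0.5 on the log2 scale, with exact Poisson intervals for sums and exact binomial intervals for shares and ratios, at 95%. Genes with 10 CPM in either group were measured. A test was not possible with a single library in each group. Barcodes were compared at 1000 UMIs after random thinning. Named are the 9 genes, up to 4 measured genes of each wider list with the largest log2 ratio of either sign (1 gene so chosen is not reported here), and up to 3 genes of most like state pattern for each of the 9. A promoter entry for Prdx6 was not used here. The ratio step was tested on simulated counts. The scripts ran on pandas 2.3.3, scipy 1.17.1, numpy 2.4.6 and matplotlib 3.10.9 under Python 3.11.15.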

Additional observations from a re-analysis of the deposited data

Results flagged for a closer look

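Prdx1 and Txn1 differed between the fractions in opposite directions in phagocytes and in mesenchymal cells, and the difference between the classes was not tested. Prdx1 had a log2 ratio of -0.10 in mesenchymal cells and was 2.83-fold higher in iron-positive phagocytes. Its direction in mesenchymal cells was not stable, since it was above 0 in 2 of 9 alternatives, at 0.04 by the mean of each cell's CPM and 0.01 in collagen-low cells. Txn1 had a log2 ratio of -0.48 in mesenchymal cells and was 1.26-fold above its iron-negative level in phagocytes.

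Barcodes above the mitochondrial limit, 1522 iron-positive and 720 iron-negative, enter none of the comparisons, and 4 genes were higher in the iron-positive ones per 1000000 UMIs outside mitochondrial genes, where 14.5% of all genes were. Prdx1 was at 1845 in iron-positive and 697 in iron-negative barcodes, a ratio of 2.65 (2.41 to 2.92). Prdx6 was at 266 in iron-positive and 126 in iron-negative barcodes (2.11), Srxn1 at 98.6 in iron-positive and 50.1 in iron-negative barcodes (1.97) and Cat at 76.2 in iron-positive and 38.7 in iron-negative barcodes (1.97).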

How the results depend on the processing

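All 9 genes stayed above 0 on the log2 scale in phagocytes under all 12 alternatives run, and Prdx1 (0.70 to 1.61) and Prdx6 (0.62 to 1.40) stayed past 1.5-fold in each. The lowest value was that of Sod1, 0.05 with states weighted as in the iron-negative library. The alternatives reuse the same 2 libraries and are no replicates, and the share of all genes above 0 was not taken. Srxn1 (0.29 to 1.18) and Cat (0.46 to 1.01) were past it in 10 of 12. The count of 4 genes became 2 with states weighted equally and 2 with states weighted as in the iron-negative library, which was chosen after seeing the data. The Mmp12-high state holds 11.0% of UMIs in iron-positive and 0.557% in iron-negative phagocytes, and both alternatives give it the same weight in each library. In mesenchymal cells the count of 0 became 1 with the mean of each cell's CPM, where Cat was higher (0.83; 14.98% of all genes higher). It became 3 with cells thinned to 1000 UMIs, where Prdx5 (0.66) and Prdx6 (1.49) were higher and Cat (-1.33) lower, beside 23.2% of all genes higher and 42.3% lower, and the cause was not tested. The thinned Cat value rests on very few UMIs. The wider list had 8 genes past 1.5-fold, 7 of them from the NRF2 target list, and 3 with states weighted equally. Alternatives chosen after seeing the data also limited phagocytes to 5000 UMIs or more, left mitochondrial and ribosomal protein genes out of the total, used collagen-low mesenchymal cells, and left out barcodes passing the pericyte and mesenchymal gates. No paired analysis was possible because each group has 1 library. The number of cells limits the mesenchymal, T or NK and Mmp12-high iron-negative values.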
